A study of Mus musculus with 6 samples.

Results

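The genes of the proteasome were followed through mRNA-seq of D4 embryoid bodies (EBs) from 2 edited mouse embryonic stem cell lines. Members were the genes whose symbol begins with Psma, Psmb, Psmc, Psmd, Psme, Psmf or Psmg and a number, which took 49 of the 15266 genes in the table. By role these were 7 subunits of the 20S alpha ring, the alternative alpha subunit *Psma8*, 7 subunits of the 20S beta ring, 4 immunoproteasome and thymoproteasome subunits, 9 subunits of the 19S base, 8 of the 19S lid, 4 activators, the inhibitor *Psmf1* and 7 assembly chaperones. The remaining gene, *Psmc3ip*, shares the symbol pattern but encodes a recombination factor and is no part of the proteasome. Both lines derive from W9.5 mESCs and were grown as EBs for 4 days in medium with serum and without LIF. EVX1-Δfs (clone 14) carries frameshift mutations in the homeodomain of *Evx1* on both alleles and leaves the antisense lncRNA *Evx1as* in place. Del#3 (Evx1/Evx1asΔ2.6kb) lacks a stretch of the locus with the promoters of both genes, so neither line makes functional EVX1. There were 3 libraries of each line, and no unedited libraries entered the comparison. EVX1-Δfs is 1 clone, and no clone is named for Del#3. The series describes its replicates as side by side differentiations of both lines, each on a day of its own. Libraries of the same number were therefore taken to share a day, so the replicate number is both a replicate and a day.

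The proteasome degrades proteins that carry ubiquitin chains. Its 20S core is a barrel of stacked rings, the outer ones of alpha subunits, which gate the channel, and the inner ones of beta subunits, of which *Psmb5*, *Psmb6* and *Psmb7* hold the active sites. The 19S cap binds the core. Its base unfolds the substrate with the ATPases *Psmc1* to *Psmc6*, and its lid removes ubiquitin through *Psmd14*. Interferon signalling is known to replace the catalytic subunits by *Psmb8*, *Psmb9* and *Psmb10*, and the activators *Psme1* to *Psme4* can take the place of the 19S cap. When the proteasome is impaired, the transcription factor NRF1 (*Nfe2l1*) is known to raise the transcription of subunit genes together through antioxidant response elements.

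The depth on the listed genes was 9024579 to 15699124 recovered reads for EVX1-Δfs and 9729013 to 12231851 for Del#3, and replicate 1 was the deepest library of both lines. *Evx1* lay between 2655 and 3671 normalized counts in EVX1-Δfs and between 32.5 and 38.2 in Del#3, as the labels require. *Evx1as* (5730457N03Rik) lay between 580 and 689 normalized counts in EVX1-Δfs and between 16.7 and 32.0 in Del#3. Markers of the primitive streak (*T*, *Mixl1*, *Eomes*) and of the epiblast (*Pou5f1*) were present in all libraries, and so were the endoderm genes *Cer1* (1448 to 2580 normalized counts), *Sox17*, *Foxa2* and *Gata6* and the neurectoderm gene *Otx2* (261 to 498). The highest value of *Sox1* and *Pax6*, also neurectoderm genes, was 10.7 normalized counts, and that of *Afp*, an endoderm gene, 4.27. Of 6 markers of blood and immune cells, *Ptprc*, *Tyrobp* and *Spi1* were not among the genes listed. *Cd52* lay between 0 and 8.13 normalized counts, *Laptm5* between 8.27 and 21.4 and *Coro1a* between 209 and 434. In such bulk samples, fewer cells of a type and less RNA per cell cannot be told apart.

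Promoter sequences are shown for members on which the results below turn. Of the 49 members, 41 had an entry in the RefSeq promoter table (GRCm38.p6), and those without one were *Psma8*, *Psmb1*, *Psmb2*, *Psmb7*, *Psmc3*, *Psmd3*, *Psmd7* and *Psmg2*. The 250 bases before the start are given for the activator *Psme4* (chr11:30771525-30771774, + strand) and the lid subunit *Psmd6* (chr14:14120946-14121195, - strand), which had the smallest p-values between days. They are also given for the catalytic subunits *Psmb5* (chr14:54617996-54618245, - strand) and *Psmb6* (chr11:70525107-70525356, + strand). Each is written 5′ to 3′ on the strand of the gene, and capitals mark the motifs described after them.
Psme4: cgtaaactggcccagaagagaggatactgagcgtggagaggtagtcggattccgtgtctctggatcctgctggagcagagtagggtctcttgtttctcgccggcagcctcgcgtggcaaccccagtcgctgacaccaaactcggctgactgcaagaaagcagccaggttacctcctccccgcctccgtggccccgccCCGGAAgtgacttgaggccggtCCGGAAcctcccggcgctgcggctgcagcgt
Psmd6: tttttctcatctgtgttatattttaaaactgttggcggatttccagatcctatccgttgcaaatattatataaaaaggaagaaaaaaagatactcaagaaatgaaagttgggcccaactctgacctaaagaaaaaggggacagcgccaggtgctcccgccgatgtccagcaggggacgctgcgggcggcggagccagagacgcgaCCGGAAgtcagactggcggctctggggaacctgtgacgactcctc
Psmb5: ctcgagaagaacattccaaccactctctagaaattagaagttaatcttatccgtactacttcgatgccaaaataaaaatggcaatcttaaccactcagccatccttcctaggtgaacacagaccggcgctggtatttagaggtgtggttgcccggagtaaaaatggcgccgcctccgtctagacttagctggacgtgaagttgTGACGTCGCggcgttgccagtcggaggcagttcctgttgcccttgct
Psmb6: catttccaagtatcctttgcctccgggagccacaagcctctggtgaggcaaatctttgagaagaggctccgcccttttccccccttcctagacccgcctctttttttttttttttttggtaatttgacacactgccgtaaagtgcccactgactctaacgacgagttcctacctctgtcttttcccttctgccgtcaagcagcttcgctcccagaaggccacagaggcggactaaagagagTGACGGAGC

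The motifs searched on both strands of the window from 250 bases before to 50 bases after the start were the ETS core CCGGAA, the antioxidant response element core TGACNNNGC, the CCAAT box and the interferon response element core GAAANNGAA. A gene with several starts counted once if any of its windows held a motif. CCGGAA was in a promoter of 21 of the 41 member genes (51.2%). The share was 16.7% of 27025 genes with a promoter and 30.6% of the 9590 such genes tested here. CCGGAA occurs at 2 places in the *Psme4* sequence and at 1 in that of *Psmd6*. TGACNNNGC was in a promoter of 6 member genes (14.6%), namely *Psmb5*, *Psmb6*, *Psmc6*, *Psmd9*, *Psmd12* and *Psme4*, against 14.0% of all these genes and 17.1% of those tested. In *Psmb5* and *Psmb6* it lies within the last 50 bases before the start, and in *Psme4* it runs across the start and so is not in the printed bases. CCAAT was in 15 (36.6%) against 41.1% and 43.1%, and GAAANNGAA in 7 (17.1%) against 9.76% and 8.13%. These shares describe letters in a window and do not show that a factor binds there.

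Most proteasome genes were among the more abundant mRNAs of D4 EBs. Levels between genes are compared as RPKM, computed from the recovered reads with merged exons as the length and the reads on listed genes as the depth, and averaged over the 6 libraries. On this scale 46 of the 49 members exceeded the median tested gene, which stood at 6.40. The exceptions were *Psmb9* (2.29), *Psma8* (0.139) and *Psmb11* (0.0679). The highest levels were those of the beta subunits *Psmb4* (390, range over libraries 238 to 519) and *Psmb7* (358, range 230 to 506), followed by the lid subunit *Psmd7* (287, range 265 to 330). With the longest coding transcript as the length, *Psmb6* (532) and *Psma7* (506) stood above *Psmb4* (456), and *Psmb7* was at 375.

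The beta ring had the highest median level of the classes, 223, and spanned 2.67-fold from *Psmb5* (146) to *Psmb4* (390). Alpha ring subunits had a median of 118, from *Psma3* (25.8) to *Psma7* (151). In the 19S cap, the base had a median of 129, from *Psmc6* (25.9) to *Psmc3* (234). Its non-ATPase scaffold subunits *Psmd1* and *Psmd2* stood at 32.3 and 80.6, and the ubiquitin receptor *Psmd4* at 163. The lid spanned more, 21.8-fold, from *Psmd11* (13.1) to *Psmd7* (287), with a median of 74.0. *Psmd14*, the deubiquitinase of the lid, stood at 60.1.

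Activators ranged from *Psme4* (9.91) through *Psme1* (57.4) and *Psme3* (68.1) to *Psme2* (96.6), and the inhibitor *Psmf1* stood at 10.6. Assembly chaperones, which build the particle and leave it, had a median of 26.4, from *Psmd9* (17.9) to *Psmg3* (64.3). *Psmc3ip* stood at 20.1. Neighbours in this order could rarely be separated: for 46 of the 48 neighbouring pairs the ranges over libraries overlapped, and gaps lay only between *Psme4* and *Psmb9* and between *Psmb9* and *Psma8*. The order also depends on the length used. With the longest coding transcript in place of merged exons, the median of the 14 core subunits rose from 147 to 216. Reads that a subunit shares with a processed pseudogene may have been lost in counting, and this was not tested.

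**Figure D1:**
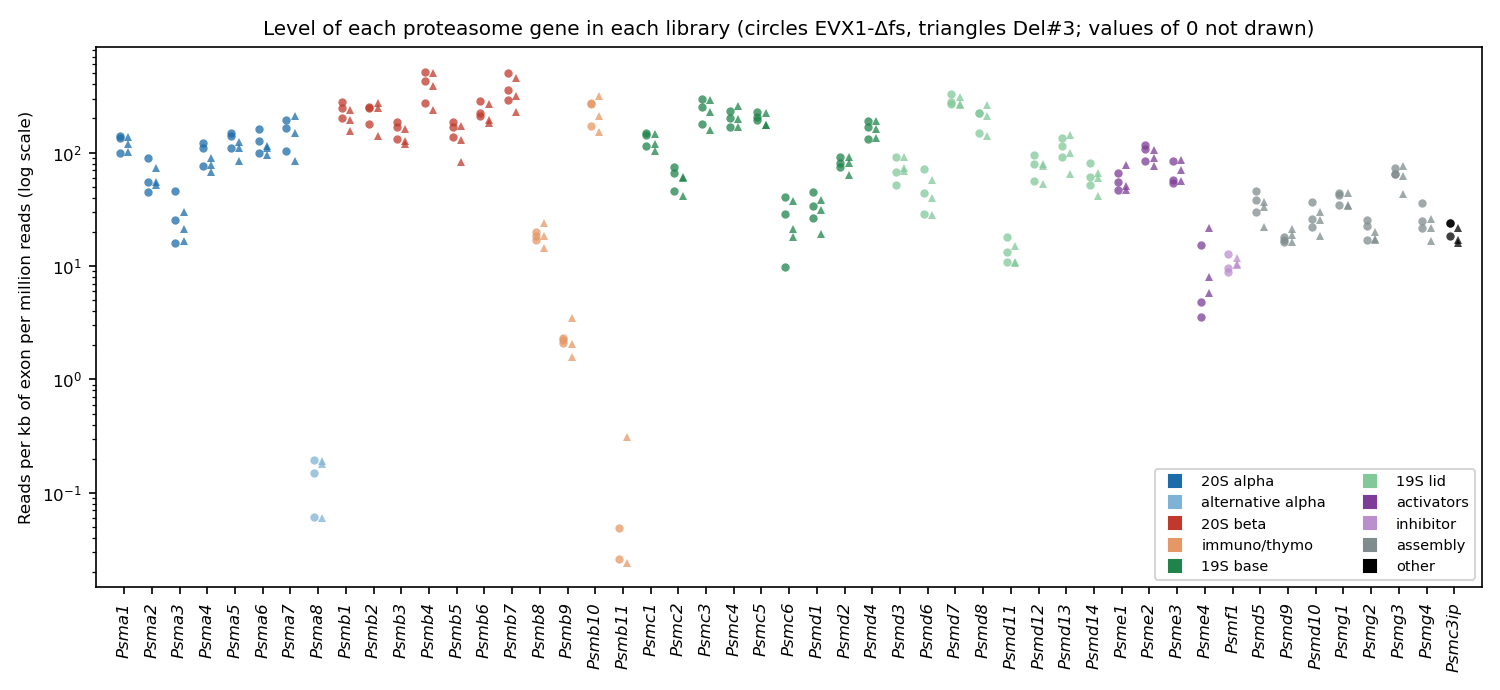
Level of the 49 members in each library, in RPKM on a log scale, with EVX1-Δfs as circles, Del#3 as triangles and colours for the classes. The 7 beta subunits sit between 83.0 and 519 in all libraries, while Psma8 and Psmb11 sit below 1.

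Specialised core subunits were unequal in these EBs. *Psma8*, the alpha subunit of male germ cells, had between 1 and 4 reads in each of the 6 libraries. *Psmb11*, the beta subunit of the cortical thymus, had 0, 1 and 2 reads in EVX1-Δfs and 16, 1 and 0 in Del#3, where values are listed here and below in the order of the replicate numbers. Neither passed the filter on low counts, so 47 of the 49 members were tested.

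*Psmb10*, the interferon-inducible counterpart of *Psmb7*, read 2273, 3605 and 3958 normalized counts in EVX1-Δfs and 1901, 4563 and 2804 in Del#3. Per length, its level in EVX1-Δfs was 63.1% ± 10.6 (SD, n = 3) of that of *Psmb7*, and in Del#3 it was 68.0% ± 2.20 (SD, n = 3). *Psmb10* thus stood within the range of the 7 beta subunits in every library, and its ratio to *Psmb7* overlapped between the lines.

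*Psmb8*, the counterpart of *Psmb5*, read 526, 488 and 610 normalized counts in EVX1-Δfs and 495, 744 and 412 in Del#3. Its level per length in EVX1-Δfs was 11.4% ± 1.81 (SD, n = 3) of that of *Psmb5*, and in Del#3 it was 15.8% ± 5.87 (SD, n = 3). With the longest transcript as the length these shares were 18.1% and 25.1%. *Psmb9*, the counterpart of *Psmb6*, read 87.1, 85.6 and 86.2 normalized counts in EVX1-Δfs and 56.6, 145 and 78.0 in Del#3. *Psmb9* was at 0.935% ± 0.175 (SD, n = 3) and 1.08% ± 0.219 (SD, n = 3) of *Psmb6*. The 3 inducible subunits were therefore at unlike levels beside their constitutive partners. *Psmb8* and *Psmb9* lie 9957 bases apart on chromosome 17, *Psme1* and *Psme2* lie 5912 bases apart on chromosome 14, and *Psmb5* and *Psmb11* lie 7296 bases apart on the same chromosome (NCBIM37); the other members are spread so that 16 chromosomes hold at least 1.

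The comparison of Del#3 with EVX1-Δfs asks whether losing *Evx1as* with *Evx1* leaves the EBs different from those that lost functional EVX1 alone. No proteasome gene passed the threshold between the lines. With limma on log2(normalized count + 1) and Benjamini-Hochberg adjustment over 12891 genes, 0 of 47 members had an adjusted p under 0.05, where 0.0155% of all genes did, namely *Evx1* and *Evx1as*. At an unadjusted p under 0.05 there were also 0 of 47, where 1.03% of all genes passed, and edgeR and DESeq2 called 0 as well. The smallest adjusted p of a member was 1.00. In no member did the 3 libraries of Del#3 all lie below those of EVX1-Δfs (1.80% of all genes) or all above them (1.71%). For 40 of the 47 members, the 95% confidence interval of the fold change lay within 2-fold either way, as for 61.1% of all genes. These intervals and the SEs below come from a fit without a term for the replicate number, so they include spread between days.

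Below the threshold, members leaned to 1 side. The log2 fold change was below 0 in 39 of 47 members, where 49.6% of all genes lay below 0, and its median was -0.18, against 0.0022 over all genes. All 7 alpha subunits (-0.41 to -0.08), all 7 beta subunits (-0.43 to -0.10), 7 of 9 base subunits and 7 of 8 lid subunits lay below 0. Of the 4 activators, 3 lay above it. The size of this lean depended on single libraries and on whether each library was first corrected for length and GC content, a correction chosen after seeing the data. Without Del#3 replicate 1, 26 of 47 members lay below 0 with a median of -0.05, without replicate 2 of that line 41 (-0.28), and without its replicate 3 36 (-0.19). For EVX1-Δfs the counts were 37 (-0.18) without replicate 1, 40 (-0.26) without replicate 2 and 31 (-0.04) without replicate 3. After the length and GC correction 33 of 47 members lay below 0 with a median of -0.075, where 53.8% of all genes lay below 0 with a median of -0.02. Because the members' values move together within a library, the counts of members are not independent of each other. Of the cell type markers tested, 5 of 5 streak (*Evx1* included), 3 of 4 epiblast and 3 of 5 endoderm markers also lay below 0. Their part in the lean was not tested.

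**Figure D2:**
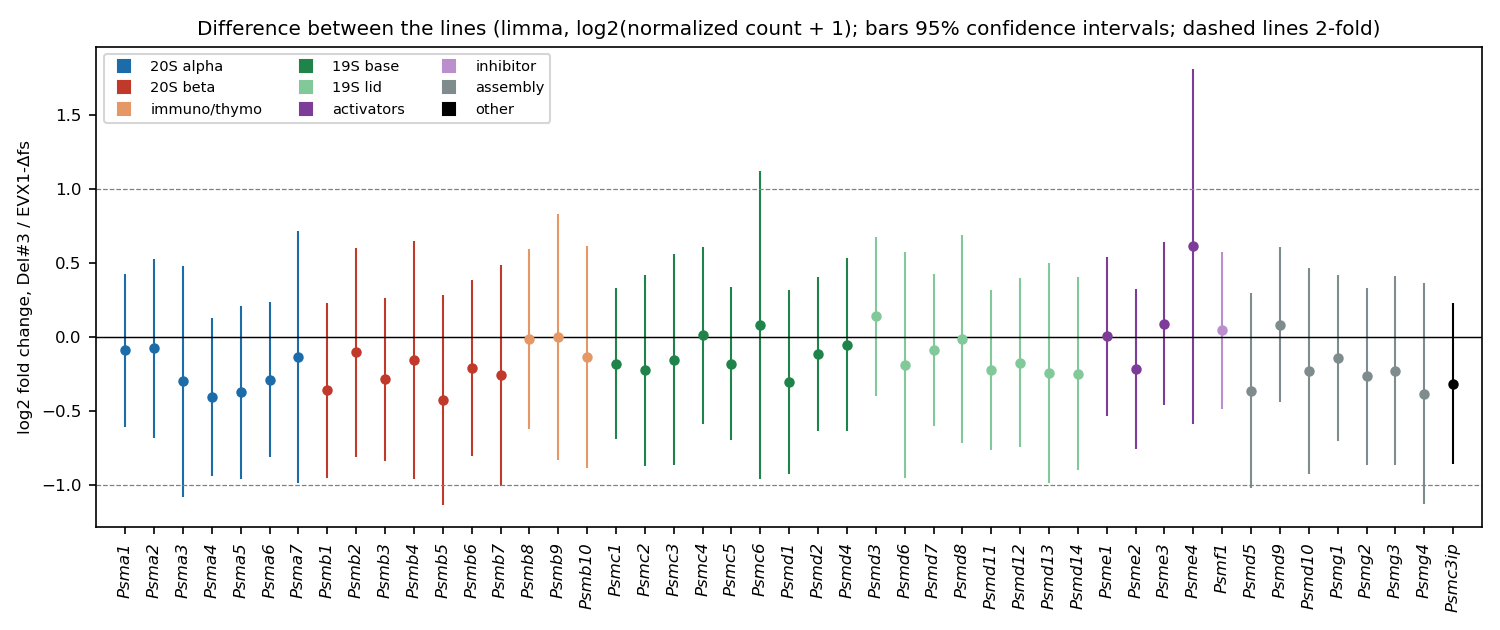
log2 fold change of the 47 tested members between Del#3 and EVX1-Δfs (points) with 95% confidence intervals (bars), coloured by class, with dashed lines at 2-fold. In this fit without a term for the replicate number, every interval crosses 0, and 40 of them lie within the dashed lines. With that term, Psme4 and Psma4 had an unadjusted p under 0.05 in limma.

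Among the catalytic subunits, *Psmb5*, the site of chymotrypsin-like activity, read 1314, 1626 and 1927 normalized counts in EVX1-Δfs and 746, 1800 and 1256 in Del#3. The lowest value was Del#3 replicate 1, and the groups overlapped. Its log2 fold change of -0.43 (SE 0.32, 95% interval -1.14 to 0.28) was the lowest of the tested members. It was -0.09 without Del#3 replicate 1 and -0.73 without Del#3 replicate 2. *Psmb6*, of caspase-like activity, read 4366, 4166 and 6010 in EVX1-Δfs and 3298, 5653 and 3792 in Del#3, a log2 fold change of -0.21 (SE 0.27). *Psmb7*, of trypsin-like activity, read 3638, 4599 and 6922 in EVX1-Δfs and 2726, 6187 and 4017 in Del#3, a log2 fold change of -0.26 (SE 0.34). In NCBIM37 these genes span chr14:55232644-55236851 (*Psmb5*, - strand), chr11:70338869-70341360 (*Psmb6*, + strand) and chr2:38443556-38499607 (*Psmb7*, - strand). All 3 had their lowest value in Del#3 replicate 1 and their highest in EVX1-Δfs replicate 3, and their lines overlapped.

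The inducible subunits had log2 fold changes of -0.14 (*Psmb10*, SE 0.34), -0.01 (*Psmb8*, SE 0.27) and -0.0006 (*Psmb9*, SE 0.38). Their values, given before, overlapped between the lines. The sign for *Psmb8* and *Psmb9* turned under other scalings, among them TMM factors.

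In the alpha ring, the lowest log2 fold change was that of *Psma4*. It read 3008, 1915 and 2920 normalized counts in EVX1-Δfs and 2056, 1807 and 1946 in Del#3, a log2 fold change of -0.41 (SE 0.24, 95% interval -0.94 to 0.13). EVX1-Δfs replicates 1 and 3 stood above all other libraries, and EVX1-Δfs replicate 2 lay among those of Del#3. *Psma7* read 3320, 5315 and 6680 in EVX1-Δfs and 2549, 7268 and 4780 in Del#3, a log2 fold change of -0.14 (SE 0.39). It had both its lowest and its highest value in Del#3.

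Of the 19S cap, the ATPases *Psmc1* to *Psmc6* had log2 fold changes from -0.23 (*Psmc2*) to 0.08 (*Psmc6*). *Psmd14* read 1514, 1839 and 2560 normalized counts in EVX1-Δfs and 1136, 2099 and 1780 in Del#3, a log2 fold change of -0.25 (SE 0.29). *Psmd3*, a lid scaffold subunit, read 4744, 3559 and 2924 in EVX1-Δfs and 4417, 4134 and 3616 in Del#3, a log2 fold change of 0.14 (SE 0.24). The lines overlapped in both.

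Among the chaperones, which had log2 fold changes from -0.38 to 0.08, the lowest was that of *Psmg4*. It read 143, 128 and 223 normalized counts in EVX1-Δfs and 90.1, 163 and 125 in Del#3, with an SE of 0.34. The lines overlapped here too.

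Among the activators, *Psme4* varied most across libraries, with an SD of 0.95 on the log2 scale, while *Psme1*, *Psme2* and *Psme3* had SDs of 0.23 to 0.27. *Psme4*, which encodes the nuclear activator PA200, read 1333, 316 and 458 normalized counts in EVX1-Δfs and 1783, 550 and 707 in Del#3. The gene spans chr11:30671726-30780361 on the + strand (NCBIM37). Within each replicate number Del#3 was the higher of the pair, yet the lines overlapped because replicate 1 stood far above the others in both. The log2 fold change was 0.61 (SE 0.54, 95% interval -0.59 to 1.81), the highest of the members. It was 0.11 without Del#3 replicate 1, 0.18 without EVX1-Δfs replicate 2, 1.22 without EVX1-Δfs replicate 1 and 0.31 after the length and GC correction. Once same-numbered libraries were blocked, its SE was 0.17, its unadjusted p in limma 0.00618 and its adjusted p 0.787. In that blocked model 2 of 47 members, *Psme4* and *Psma4*, had an unadjusted p under 0.05, where 4.62% of all genes did.

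The interferon-inducible pair *Psme1* and *Psme2* form the 11S activator PA28. *Psme1* read 1528, 1284 and 1168 normalized counts in EVX1-Δfs and 1672, 1266 and 1092 in Del#3, and *Psme2* read 2130, 1579 and 2127 in EVX1-Δfs and 1555, 2086 and 1413 in Del#3. The log2 fold changes were 0.0035 (SE 0.24) for *Psme1* and -0.21 (SE 0.24) for *Psme2*. The level of *Psme1* per length in EVX1-Δfs was 55.4% ± 10.7 (SD, n = 3) of that of *Psme2*, and in Del#3 it was 65.3% ± 18.97 (SD, n = 3). Neither gene nor their ratio separated the lines.

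*Psme3*, the nuclear PA28 gamma, read 2574, 1794 and 1801 normalized counts in EVX1-Δfs and 2498, 2318 and 1733 in Del#3, a log2 fold change of 0.09 (SE 0.25). *Psmf1* read 639, 868 and 647 in EVX1-Δfs and 647, 857 and 709 in Del#3, a log2 fold change of 0.04 (SE 0.24). The highest value of *Psmf1* was in replicate 2 of both lines.

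Summed over genes, members took 1.06% ± 0.0967 (SD, n = 3) of the reads of EVX1-Δfs libraries, and of Del#3 libraries 0.979% ± 0.133 (SD, n = 3). The ratio of summed reads of the 17 subunits of the 19S to the 14 of the 20S was 1.22 ± 0.0682 (SD, n = 3) for EVX1-Δfs, and for Del#3 1.32 ± 0.128 (SD, n = 3). Within EVX1-Δfs the ratio was 1.23, 1.28 and 1.15, and within Del#3 it was 1.47, 1.23 and 1.27. All of these overlapped between the lines.

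The sign of the difference depended on the replicate. Within replicate 1, Del#3 lay below EVX1-Δfs in 44 of 47 members (median log2 difference -0.36), within replicate 2 in 9 (median 0.27), and within replicate 3 in 43 (median -0.41). Over all 12891 genes the counts below were 6707, 6170 and 6436. All 7 beta subunits lay lower in Del#3 within replicate 1, none within replicate 2 and all 7 within replicate 3. Members lower in all 3 pairs numbered 7, beside 11.0% of all genes, and 1 member, *Psme4*, was higher in all 3, beside 12.1% of all genes. Transcript length moved with these differences: across the 47 members Spearman's rho between length and the difference was 0.52, -0.14 and 0.47 within replicates 1 to 3, and over 11997 genes 0.39, -0.17 and 0.38. After the length and GC correction 38, 14 and 33 of 47 members lay lower in Del#3, and for the beta ring 7, 0 and 6 of 7.

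**Figure D3:**
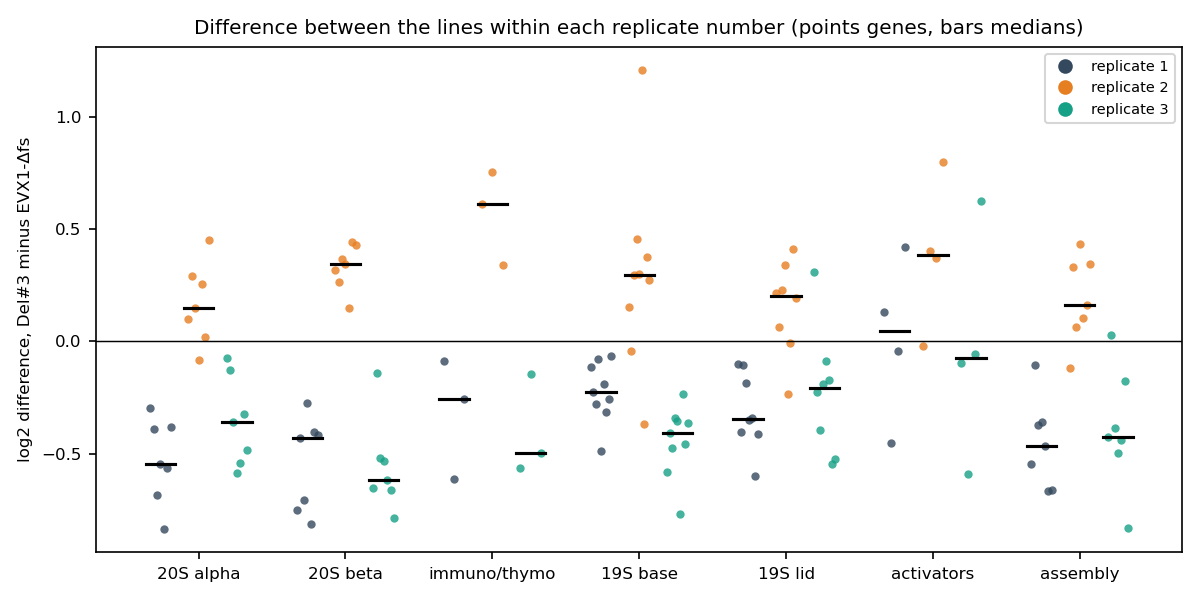
log2 difference between Del#3 and EVX1-Δfs within replicates 1, 2 and 3 (colours), with 1 point for each gene and a bar at the median of each class. The 7 beta subunits lie below 0 in replicates 1 and 3 and above 0 in replicate 2.

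Single libraries stood out across the members. Del#3 replicate 1 held the lowest value of 27 of the 47 members, all 7 beta subunits included, where it held the lowest value of 23.7% of all genes. EVX1-Δfs replicate 3 held the highest value of 19 members (40.4%, against 16.6% of all genes), EVX1-Δfs replicate 1 of 13 (27.7% against 17.9%) and Del#3 replicate 2 of 12 (25.5% against 19.4%). The median log2 deviation of members from their mean over libraries was 0.09, -0.09 and 0.29 for the EVX1-Δfs libraries and -0.30, 0.22 and -0.10 for those of Del#3. Across libraries the members had a median SD of 0.33 on the log2 scale, against 0.37 over all genes.

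**Figure D4:**
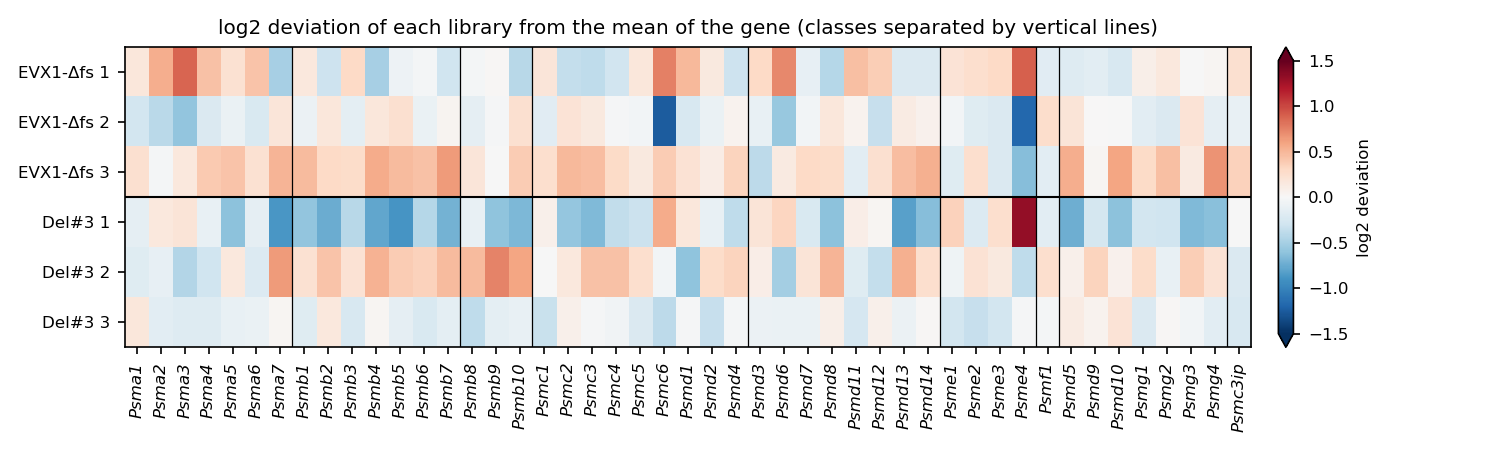
log2 deviation of each tested member from its own mean in the 6 libraries, from blue (below) to red (above), with vertical lines between classes. Replicate 1 of both lines is red for Psme4 and Psmc6 and, in Del#3, blue for all 7 beta subunits.

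The replicate number was taken as the day on which the EBs were set up, and days were compared with the line as a covariate. *Psme4* was the 1 member that changed between days, with an adjusted p of 0.0225 in limma, among 47 members and 4.24% of all genes called. It fell by 1.88 on the log2 scale from replicate 1 to replicate 2 and by 1.44 from replicate 1 to replicate 3. After the length and GC correction these differences were smaller, -0.9965 and -0.9504. The highest of its libraries held 5.63 times the lowest. At an unadjusted p under 0.05 there were 19 of 47 members, where 27.7% of all genes passed. The number of members called changed with the setting, as did the share of all genes called. It was 2 with total reads (2.46% of all genes called), with at least 10 reads in every library (5.52%) or with a pseudocount of 5 (4.97%), 3 after the length and GC correction (3.72%) and 9 with DESeq2 (10.1%). Of the EVX1-Δfs libraries, leaving out replicate 1 gave 1 member (1.50% of all genes), replicate 2 gave 17 (16.9%) and replicate 3 gave 9 (18.3%). Of the Del#3 libraries, leaving out replicate 1 gave 1 (1.62%), replicate 2 gave 17 (11.1%) and replicate 3 gave 15 (24.2%). *Psme4* was called in each of these.

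The next smallest p-values between days belonged to *Psmd6*, *Psma7*, *Psma3* and *Psmb4*. None of these passed the threshold in limma with the settings that gave the p-values printed here, and all 4 were among the 9 that DESeq2 called. In limma all 4 were called without EVX1-Δfs replicate 3, without Del#3 replicate 2 or without Del#3 replicate 3, and all but *Psma3* without EVX1-Δfs replicate 2. *Psmd6* was also called with total reads, with at least 10 reads in every library, with a pseudocount of 5 and after the length and GC correction. *Psmd6*, a lid scaffold subunit, read 1728, 703 and 1145 normalized counts in EVX1-Δfs and 1306, 734 and 978 in Del#3, with a log2 difference from replicate 1 of -1.06 in replicate 2 and -0.50 in replicate 3 and a limma adjusted p of 0.0549. *Psma3* read 1833, 662 and 1115 in EVX1-Δfs and 1140, 733 and 869 in Del#3, with differences of -1.05 and -0.55 and an adjusted p of 0.0804 in limma. Both were highest in replicate 1 and lowest in replicate 2 of either line. After the length and GC correction the differences were -0.30 and -0.28 for *Psma3*, and -1.065 and -0.68 for *Psmd6*.

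*Psma7* and *Psmb4* went the other way. *Psmb4* read 3888, 6206 and 8094 normalized counts in EVX1-Δfs and 3211, 7866 and 5597 in Del#3, with differences of 0.98 and 0.93 and an adjusted p of 0.0828 in limma. For *Psma7*, whose values are given before, they were 1.09 and 0.96, with an adjusted p of 0.0764 in limma. In both genes replicate 1 was the lowest library of its line. After the correction the differences were 0.70 and 0.68 for *Psmb4* and 0.82 and 0.66 for *Psma7*. *Psmc6* had the largest SD across libraries after *Psme4*, with day differences of -1.30 and -0.66 and 910, 226 and 704 normalized counts in EVX1-Δfs and 797, 524 and 412 in Del#3, and its adjusted p in limma was 0.15. Its corrected differences were -0.38 and -0.24.

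By class, the differences between days had unlike signs. Values were higher in replicates 2 and 3 than in replicate 1 for 27 members, lower in both for 16 and mixed for 4. All 7 beta subunits were among the higher and all 4 activators among the lower, while the alpha ring held 2 higher, 4 lower and 1 mixed. Of the base subunits 5 were higher and 3 lower, and of the lid subunits 4 were higher and 4 lower. Over all genes 5017 were higher and 5471 lower. These counts turned in part with the length and GC correction. After it, the base held 4 higher and 5 lower, the lid 4 and 4, and the alpha ring 2 and 3. In the beta ring *Psmb3* (-0.27 and -0.27) and *Psmb6* (-0.05 and -0.01) were then lower in replicates 2 and 3 and the other 5 higher, while the 4 activators stayed lower. Markers of cell types were also unequal between days, with 3 of 4 epiblast, 2 of 5 streak and 3 of 5 tested endoderm markers higher in replicates 2 and 3 and 0, 1 and 2 lower. Those higher included *Nanog* of the epiblast (0.95 and 0.64) and *Foxa2* of the endoderm (0.95 and 0.53). In the streak they were *Eomes* (0.75 and 0.55) and *Mesp1* (0.70 and 0.62). None of these 4 passed the threshold (adjusted p in limma 0.0739 to 0.153). The lower ones were *Ttr* (-0.73 and -0.86) and *Gata6* (-0.24 and -0.10) of the endoderm and *Mixl1* (-0.0059 and -0.14) of the streak. Members of 1 list thus went both ways, and the part of these markers in the result was not tested. The ratio of summed beta to summed alpha reads was 1.28, 1.77 and 1.74 in EVX1-Δfs and 1.27, 1.90 and 1.51 in Del#3.

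These differences moved with transcript features. Spearman's rho across the 47 members between the difference (mean of replicates 2 and 3 minus replicate 1) and GC content was 0.44, and between the difference and transcript length it was -0.39. Over 11997 genes they were 0.37 and -0.39. The points share the same 6 libraries. Members higher in replicates 2 and 3 had a median GC content of 52.2% and a median length of 1316 bases, and those lower had 47.6% and 2051.5 bases. *Psme4* has the longest coding transcript of the tested members, 6491 bases. Replicate 1 was also the deepest library of each line, so depth, day and any handling on that day cannot be told apart. After the length and GC correction 21 members were higher and 21 lower, where 5372 genes were higher and 4837 lower in all, and *Psme4*, *Psmd6* and *Psmd14* were called among 446 of 11997 genes.

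**Figure D5:**
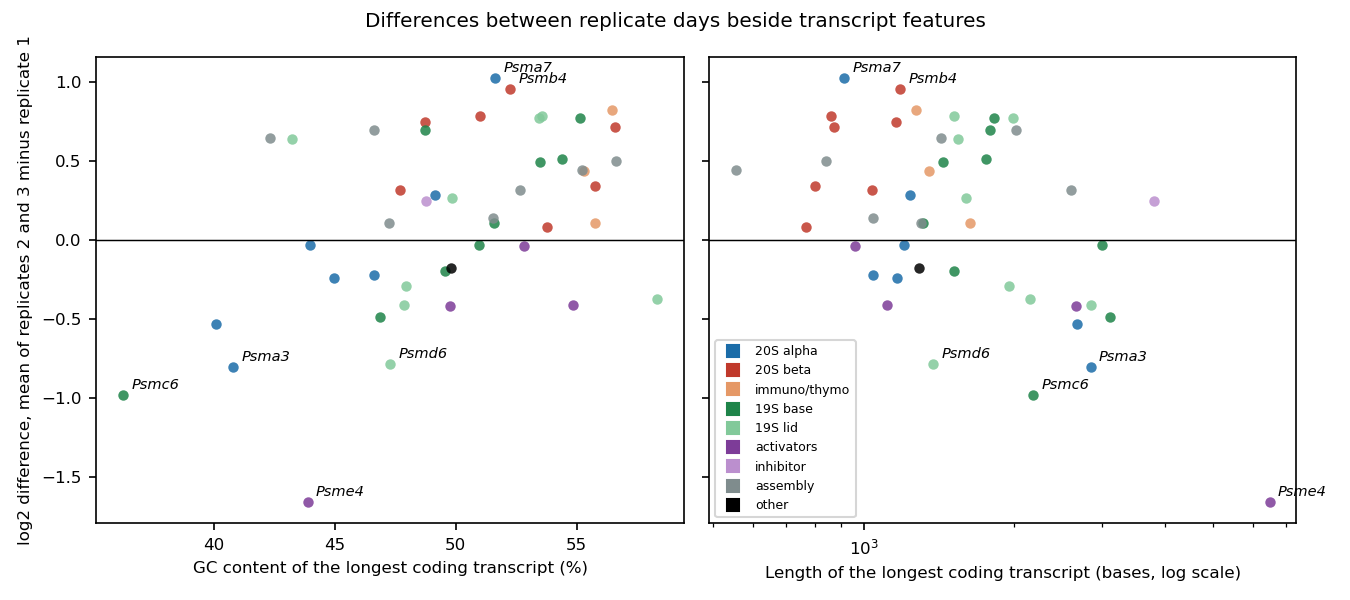
log2 difference between the mean of replicates 2 and 3 and replicate 1 for the 47 tested members, against the GC content (left) and the length on a log scale (right) of the longest coding transcript, coloured by class. Psme4 lies lowest and has the longest transcript, and the 7 beta subunits lie above 0 (values without the length and GC correction).

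Of the other genes of the pathway, 58 were tested between the lines. With limma 0 had an adjusted p under 0.05, where 0.0155% of all genes did, and 0 an unadjusted p under 0.05. Their log2 fold changes lay above 0 in 26 and below 0 in 32, from -0.498 (*Nlrc5*, SE 0.42) to 0.96 (*Uba6*, SE 0.57). The 95% interval lay within 2-fold either way in 43 of the 58. Among 11 subunits and partners with other symbols, *Pomp*, which matures the core, read 1833, 2755 and 3498 normalized counts in EVX1-Δfs and 1344, 3232 and 2408 in Del#3. *Shfm1*, the small lid subunit, read 2037, 2874 and 3259 in EVX1-Δfs and 1119, 2995 and 2533 in Del#3. The proteasome-bound deubiquitinase *Usp14* read 612, 288 and 317 in EVX1-Δfs and 494, 218 and 359 in Del#3. The first 2 were lowest and *Usp14* was highest in replicate 1 of each line, and none passed the threshold between days.

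The NRF1 list had 6 of 12 genes below 0 between the lines and a median log2 fold change of -0.0079. *Nfe2l1* itself read 1855, 1616 and 1678 normalized counts in EVX1-Δfs and 2104, 1882 and 1529 in Del#3, a log2 fold change of 0.09 (SE 0.22). The ubiquitin and delivery genes had 9 of 19 below 0, and the interferon and antigen presentation genes 9 of 17. Between days, 1 of the 58 genes was called, a smaller share than the 4.24% of all genes. This was the interferon receptor kinase *Jak2*. It read 161, 24.6 and 48.4 normalized counts in EVX1-Δfs and 152, 43.0 and 72.6 in Del#3, with an adjusted p of 0.0305 in limma. Its highest values were those of replicate 1 in both lines.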

How the data were processed

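Values were analysed for D4 EBs of EVX1-Δfs and Del#3, with 3 libraries each. Reads from an Ion Proton were aligned by the authors to mm9 (TopHat2, then TMAP), assigned to genes by HTSeq with standard settings, and analysed with DESeq2. Versions and the annotation are not given in the sources used here. The deposited values are a signal, read counts divided by a size factor, and are called normalized counts here. Dividing a library's values by its smallest step gave whole reads for 100% of them (tolerance 0.1 reads), and these recovered reads were used as counts. The depth on listed genes was 9024579 to 15699124 recovered reads per library. Reads carry no molecular identifiers.

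Genes were filtered with filterByExpr of edgeR (4.0.16, minimum count 10), which kept 12891 of 15266, and tested on log2(normalized count + 1) with limma-trend (3.58.1, R 4.3.3), Benjamini-Hochberg adjustment and a threshold of 0.05. Fold changes are on that scale, and fold changes of low genes are understated. SEs and intervals between the lines are those of the fit without the replicate block, unless the block is named. Days were compared by a limma F test with the line as a covariate. Replicates are separate differentiations of 1 clone per line, so p-values measure the spread between differentiations and not between clones. Replicate numbers were taken to pair the samples from the design text of the series, by which each replicate is a side by side differentiation of both lines on its own day. The number itself comes from the sample titles, and same-numbered deviations correlated over all genes at 0.738, 0.317 and -0.053 in replicates 1 to 3 (members 0.927, 0.707 and 0.487). Lengths, positions and GC content came from GENCODE vM1 (NCBIM37) and promoters from RefSeq (GRCm38.p6).

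The members and lists were chosen with earlier results of these data known. Named genes were the catalytic and inducible subunits, *Psma7*, *Psma8*, the activators and inhibitor, *Psmc1* to *Psmc6* by range, *Psmd14*, the 3 members with the highest and the 3 with the lowest fold change between lines, the 5 with the smallest p between days, *Evx1*, *Evx1as* and any listed gene past the threshold. *Psmc6* between days, *Pomp*, *Shfm1*, *Usp14*, *Nfe2l1* and other genes named were chosen after their values were seen. Fits were tested on simulated data. Alternatives were TMM, total-read and DESeq2 scaling, other filters and pseudocounts (0.1 and 5), edgeR quasi-likelihood and DESeq2 (1.42.0) on the recovered reads, the replicate block, leaving out each library and, chosen after seeing the data, a loess correction (span 0.3) for length and GC content and leaving out replicate 1.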

Additional observations from a re-analysis of the deposited data

How the results depend on the processing

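No member passed the threshold between the lines under any alternative run, with 399 values recomputed for 19 named members. In 6 of them (*Psma4*, *Psmb5*, *Psmb6*, *Psme2*, *Psme4*, *Psmg4*) the sign of the log2 fold change was the same in all, and in 13 it turned at least once, in 45 values of at most 0.306 in size. The replicate block changed no call of a member. For *Psmb8* the log2 fold change was 0.0017 with TMM, 0.019 with total reads, 0.026 with DESeq2, 0.042 with edgeR, 0.0070 with edgeR and the block, and 0.015 after the length and GC correction with or without the block. For *Psmb9* it was 0.015, 0.032, 0.10, 0.12, 0.019 and 0.064 in that order, and 0.0038 with a pseudocount of 5, while that of *Psma7* was 0.033 after the correction. Without both replicate 1 libraries it was 0.023 for *Psmb8*, 0.31 for *Psmb9* and -0.060 for *Psme1*.

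Leaving out single libraries, the log2 fold changes ranged from -0.73 to -0.092 for *Psmb5*, -0.44 to -0.045 for *Psmb6*, -0.56 to 0.032 for *Psmb7*, -0.25 to 0.17 for *Psmb8*, -0.37 to 0.30 for *Psmb9*, -0.47 to 0.17 for *Psmb10*, -0.49 to 0.27 for *Psma7*, -0.17 to 0.14 for *Psme1*, -0.38 to -0.097 for *Psme2*, -0.015 to 0.26 for *Psme3*, 0.11 to 1.22 for *Psme4*, -0.069 to 0.19 for *Psmf1*, -0.44 to 0.0066 for *Psmd14*, -0.62 to -0.29 for *Psma4*, -0.59 to -0.14 for *Psmg4*, -0.024 to 0.33 for *Psmd3*, -0.52 to 0.13 for *Psmd6*, -0.67 to 0.065 for *Psma3* and -0.45 to 0.19 for *Psmb4*.

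Genes called between the lines numbered 2, also 2 with edgeR on the recovered reads and 3 with DESeq2. With the block they numbered 3 in limma, 3 in edgeR and 18 in DESeq2. Between days, genes called over the whole table numbered 546, 347 with TMM, 317 with total reads, 1308 with DESeq2 and 197 to 3175 when a library was left out (197 without EVX1-Δfs replicate 1, 2217 without replicate 2 and 2401 without replicate 3, and 211, 1453 and 3175 without Del#3 replicates 1 to 3). Members called between days numbered 1, 2 with total reads, with at least 10 reads in every library or with a pseudocount of 5, 3 after the length and GC correction, 9 with DESeq2 and 1 to 17 when a library was left out. Scaling to total reads moved the median day difference of all genes to -0.15. The causes were not tested. With 3 libraries per line and SEs near 0.3 on the log2 scale without the replicate block, differences between the lines could have gone uncalled. The smallest difference that would pass the threshold was not determined.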
